A study of Arabidopsis thaliana with 6 samples.

Results

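The genes described here encode 10 sugar transporters of *Arabidopsis*, 5 from the SUC family (*SUC1* to *SUC5*) and 5 from the SWEET family (*SWEET4*, *SWEET10*, *SWEET11*, *SWEET12* and *SWEET15*). They were taken by locus identifier from 6 embryo RNA-Seq libraries, in a list chosen with earlier results of these data known. In these libraries 24509 transcripts had at least 1 read in some library, 9 of them from the 10 members. The libraries were made from embryos of the Col-0 ecotype, either homozygous for the *wrinkled1-1* allele (*atwri1-1*) or wild type (WT), with 3 biological replicates of each genotype. All embryos were dissected at 8 d after pollination, and each replicate pooled 25 to 30 of them. The comparison asked which of these transporter mRNAs differ in level between mutant and WT embryos.

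A developing embryo has no vascular connection to the mother plant, and the sucrose it uses for growth, oil and storage protein has to cross the membranes of several seed tissues. SUC proteins are symporters that move sucrose together with protons, and so can take it up against a gradient. SWEET proteins are uniporters that let sugar run down its gradient, and SWEET11, SWEET12 and SWEET15 are known for releasing sucrose from the seed coat and endosperm towards the embryo. WRI1, the transcription factor that *atwri1-1* affects, is known as an activator of genes that turn sugar into fatty acids in the embryo.

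Of the 10 transporters, 3 sucrose symporters, *SUC1*, *SUC2* and *SUC5*, had lower mRNA levels in the libraries labelled *atwri1-1*, which is 3 of the 8 members that could be tested, against 5.31% of all genes tested. No member was called higher, against 1.08% of all genes tested. The other SUC genes, *SUC3* and *SUC4*, and the 3 tested SWEET genes were not called. Levels are given as CPM, counts per 1e+06 reads on tested genes with library sizes scaled by TMM factors, and differences as log2 fold changes of *atwri1-1* over WT. For a call, a gene needed an absolute log2 fold change above 1 and an adjusted p of at most 0.05 (edgeR quasi-likelihood, Benjamini-Hochberg over all 18241 genes tested). *SWEET4*, with no read, and *SWEET10* did not pass the filter on low counts.

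The libraries held between 8510887 and 18933870 reads on transcripts, and 3 counts corresponded to between 0.148 and 0.338 CPM. *WRI1* mRNA itself was higher in the libraries labelled *atwri1-1* (1256, 1100 and 1042 CPM) than in WT (186, 148 and 166 CPM), so all directions below follow the labels. WT replicate 1 stood apart from the other WT libraries: its counts differed from theirs by a chi-square per degree of freedom of 78.4 and 88.7, against 6.95 between the other WT libraries, and the members' values without it are given beside those with it. Markers of the labelled tissue were present in every library, with a summed level of 3193 to 4258 CPM in *atwri1-1* and 2138 to 2925 CPM in WT for *LEC1*, *LEC2*, *FUS3*, *ABI3* and *OLE1*. Of these 5, *LEC2* was called higher, against 1.08% of all genes tested, and the others were not called. In bulk RNA, fewer cells of a type and less RNA per cell cannot be told apart.

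The sites printed next show where members carry the motifs that the study connects with WRI1, the 14-base AW Box and the CNC Box (CNCCNCC). They were searched on both strands within 500 bases after the annotated 5′ end of each gene in TAIR10.1. Sites are 30 bases of the gene's strand, 5′ to 3′, with the motif in capitals. The AW Box sites of *SUC1* (chr1:27054430-27054459, plus strand) and *SUC5* (chr1:27058591-27058620, plus strand), in their coding sequence, are shown because these neighbouring genes were both lower:
SUC1 AW Box: atcatctcCGTCGCTTCCATCGccgccggt
SUC5 AW Box: atcatctcCGTCGCTTCAATCGccgccggt
The SUC2 site (chr1:8033037-8033066, minus strand), in the 5′ UTR, is shown because *SUC2* was lower and held no AW Box in this window:
SUC2 CNC Box: tcttcctcttcCTCCACCactacaaccacc
The sites of *SWEET11* (chr3:18054604-18054633, minus strand), in its coding sequence, and *SWEET12* (chr5:7973776-7973805, minus strand), across the start of its coding sequence, are shown because these genes held the AW Box and were not called:
SWEET11 AW Box: gcctttgtCTTTGGCTTGCTCGgtatgata
SWEET12 AW Box: tcgacattCATGGCTCTCTTCGacactcat

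The *SUC1* and *SUC5* sites differed by 1 base, C18A, where the *SUC1* base stands first and positions count from 1 at the 5′ end of the printed site. In both genes a CNC Box overlapped the end of the AW Box on the same strand. The AW Box was found downstream of the 5′ end in 4 of the 10 members, namely *SUC1*, *SUC5*, *SWEET11* and *SWEET12*, against 39.8% of 27444 protein-coding genes. The CNC Box was found there in *SUC1*, *SUC2*, *SUC4* and *SUC5*, again 4 of 10, against 48.0% of these genes. In the 500 bases before the 5′ end, *SUC4*, *SWEET11* and *SWEET15* held an AW Box, against 18.3% of 27443 genes, and no member held a CNC Box, against 20.4%. A match describes these letters in this window and not a bound site.

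*SUC2* (AT1G22710, chr1:8030587-8033156, minus strand, 4 exons) encodes the symporter that loads sucrose into the phloem of leaves. Its level was 2.38, 1.48 and 1.92 CPM in the libraries labelled *atwri1-1*, from 26, 30 and 17 reads, and 65.4, 34.9 and 31.9 CPM in WT, from 833, 395 and 370 reads. Every mutant library was far below every WT library, and within WT it was replicate 1 that was highest. The mean was 1.92 ± 0.449 CPM in *atwri1-1* and 44.1 ± 18.5 CPM in WT (SD, n = 3 each). The log2 fold change was -4.54 (SE 0.369, 95% interval -5.41 to -3.68, adjusted p = 6.3e-04, edgeR quasi-likelihood, Benjamini-Hochberg). *SUC2* was called lower in all 13 alternatives that gave it a value, and its log2 fold change without WT replicate 1 was -4.16.

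*SUC2* is a marker of phloem companion cells in other organs, and the level of phloem genes was therefore measured in the same libraries. Of 6 phloem markers, 4 did not pass the filter on low counts, and none of the others was called. *APL*, a regulator of phloem identity, had at most 2 reads in any library, and *SEOR1*, a sieve element protein, at most 4. The markers summed to 33.8, 17.8 and 14.1 CPM in *atwri1-1* and 11.5, 16.0 and 16.7 CPM in WT. Most of each sum came from *AHA3*, a proton pump, and *CALS7*, a callose synthase, neither of which was called lower in *atwri1-1*. *AHA3* had 25.2, 5.67 and 4.74 CPM in *atwri1-1*, and its lowest WT library had 7.52 CPM. Its mutant replicates 2 and 3 were thus below every WT library, and replicate 1 was above them all. The 95% interval of its log2 fold change was wide, -0.95 to 1.94. *CALS7* was higher in every mutant library than in any WT library. The part of phloem cells in the *SUC2* values was not tested.

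*SUC1* (AT1G71880, chr1:27054030-27056464, plus strand, 3 exons) encodes a plasma membrane symporter best known from pollen. Its level was 0.366, 0.493 and 0 CPM in the libraries labelled *atwri1-1*, from 4, 10 and 0 reads, and 12.7, 151 and 87.8 CPM in WT, from 162, 1708 and 1018 reads. The mutant libraries lay near the level of 3 counts and below every WT library, whereas WT itself spread widely, with replicate 1 lowest. The mean was 0.286 ± 0.256 CPM in *atwri1-1* and 83.9 ± 69.3 CPM in WT (SD, n = 3 each). This gave a log2 fold change of -7.91 (SE 1.15, 95% interval -10.60 to -5.22, adjusted p = 0.0065, edgeR quasi-likelihood, Benjamini-Hochberg). It was -8.40 without WT replicate 1, -7.18 without WT replicate 2 and -8.63 without *atwri1-1* replicate 2, each still called. The calls without *atwri1-1* replicate 1, 2 or 3 were near the threshold (adjusted p = 0.0457, 0.0444 and 0.0399, edgeR quasi-likelihood, Benjamini-Hochberg). In contrast, limma-voom, run on the same genes, did not call *SUC1* (adjusted p = 0.163, Benjamini-Hochberg).

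*SUC5* (AT1G71890, chr1:27058381-27060786, plus strand, 3 exons) encodes a symporter that carries sucrose and the vitamin biotin and is known from the endosperm. Its level was 32.7, 18.8 and 21.0 CPM in the libraries labelled *atwri1-1* and 65.4, 152 and 125 CPM in WT. The groups did not overlap, and WT replicate 1 was the WT library nearest to the mutant ones. The mean was 24.1 ± 7.45 CPM in *atwri1-1* and 114 ± 44.3 CPM in WT (SD, n = 3 each). Their log2 fold change was -2.24 (SE 0.353, 95% interval -3.07 to -1.42, adjusted p = 0.0089, edgeR quasi-likelihood, Benjamini-Hochberg), and -2.53 without WT replicate 1. The call was lost when *atwri1-1* replicate 2 (adjusted p = 0.0541) or replicate 3 (adjusted p = 0.0564) was left out.

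*SUC1* and *SUC5* lie in the same orientation, 1916 bases apart, with 0 genes annotated between them. Their coding sequences were 84.3% identical over the aligned bases, the highest identity among the SUC members, followed by *SUC1* and *SUC2* with 76.5% and *SUC2* and *SUC5* with 74.8%. The other SUC pairs shared 60.8% to 62.8%. Reads with several equally good places had been dropped, so stretches that are the same in both copies add to the count of neither. Of the 31-base stretches of the transcript, 99.1% of those in *SUC1*, 98.4% of those in *SUC5* and 99.8% of those in *SUC2* occurred in no other gene's transcript. The following 30 bases, coding bases 408 to 437 of *SUC1* and 411 to 440 of *SUC5*, are shown because they hold the most differences of any such stretch, 16, with the differing bases in capitals:
SUC1 coding stretch: TaAAGTtcgagcTatAGGGatcttTGCTCT
SUC5 coding stretch: AaGGACtcgagcCatTATAatcttCCTAAC

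The neighbours did not keep the same proportion to each other. The ratio of *SUC1* to *SUC5* CPM was 0.0112, 0.0262 and 0 in *atwri1-1* and 0.195, 0.994 and 0.702 in WT. The ratio was thus below every WT value in every mutant library, and in WT it was lowest in replicate 1. The ratio was chosen after its values were seen and was not tested.

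**Figure D1:**
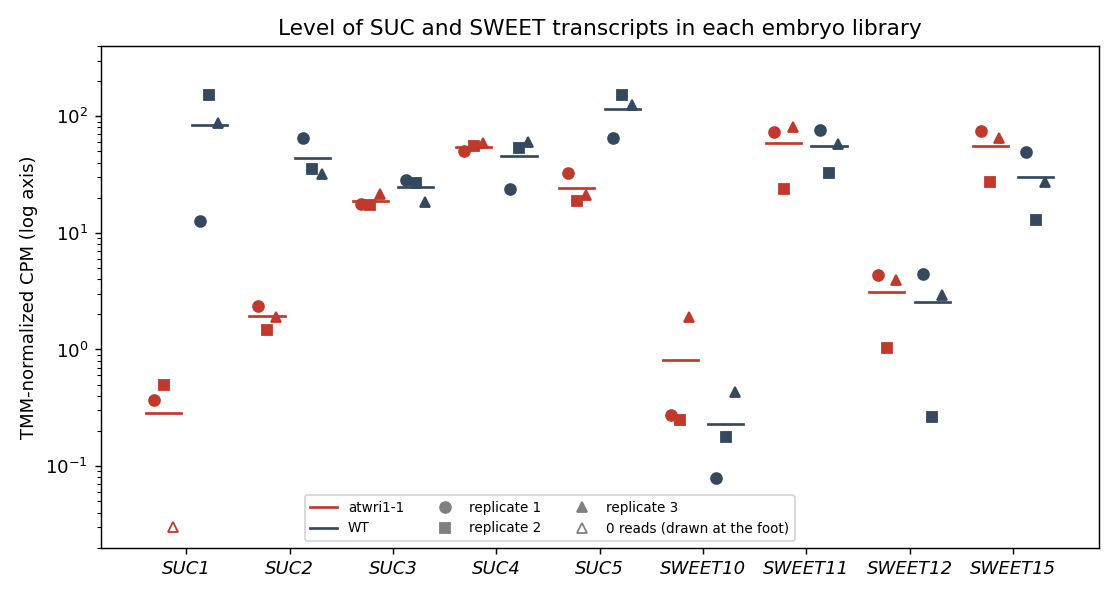
TMM-normalized CPM on a log axis for the 9 members with a read, with a point for each library (symbols mark the replicate number), *atwri1-1* left of WT, and a bar at each group mean. *SUC1*, *SUC2* and *SUC5* are lower in all 3 *atwri1-1* libraries than in any WT library, the *SUC1* point at the foot stands for 0 reads, and the other members overlap between groups.

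*SUC3* (AT2G02860, chr2:828279-832619, minus strand, 14 exons) encodes a symporter with a long central loop. Its level was 17.6, 17.3 and 21.6 CPM in the libraries labelled *atwri1-1* and 28.4, 26.7 and 18.5 CPM in WT. WT replicate 3 lay within the range of the mutant libraries, so the groups overlapped. The log2 fold change was -0.39 (SE 0.201, 95% interval -0.86 to 0.086, adjusted p = 0.284, edgeR quasi-likelihood, Benjamini-Hochberg). The lower bound of the interval is above -1, so a fall past the fold minimum lies outside it. Without WT replicate 1 the log2 fold change was -0.28. It was -0.55 without WT replicate 3 (unadjusted p = 0.021, adjusted p = 0.144, edgeR quasi-likelihood, Benjamini-Hochberg).

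*SUC4* (AT1G09960, chr1:3243986-3247216, plus strand, 6 exons) encodes the symporter of the vacuolar membrane, which moves sucrose from the vacuole into the cytosol. Its level was 50.6, 55.6 and 58.5 CPM in the libraries labelled *atwri1-1* and 23.9, 52.9 and 60.4 CPM in WT. The mutant libraries were close together and near WT replicates 2 and 3, and WT replicate 1 was the low value. Between genotypes the log2 fold change was 0.26 (SE 0.314, 95% interval -0.47 to 1.00, adjusted p = 0.644, edgeR quasi-likelihood, Benjamini-Hochberg). Without WT replicate 1 it was -0.051.

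Read together, the tested members were lower or not called. In the fit with all libraries and no replicate block, none with a level above WT reached an unadjusted p of 0.05 in edgeR's quasi-likelihood test. *SWEET15* did with the replicate block (unadjusted p = 0.0020) and without WT replicate 1 (0.0174) or *atwri1-1* replicate 2 (0.0498). No member was called higher in any alternative, DESeq2 and limma-voom included. The groups did not overlap for 3 members, all lower in *atwri1-1*, against 18.9% of all genes apart in that direction and 16.1% apart with *atwri1-1* higher. The median log2 fold change was -0.15 over the 8 tested members and -0.0070 over all genes tested. With 8 members, these shares are counts of a small list. The members are also related by sequence, *SUC1* and *SUC5* most closely.

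**Figure D2:**
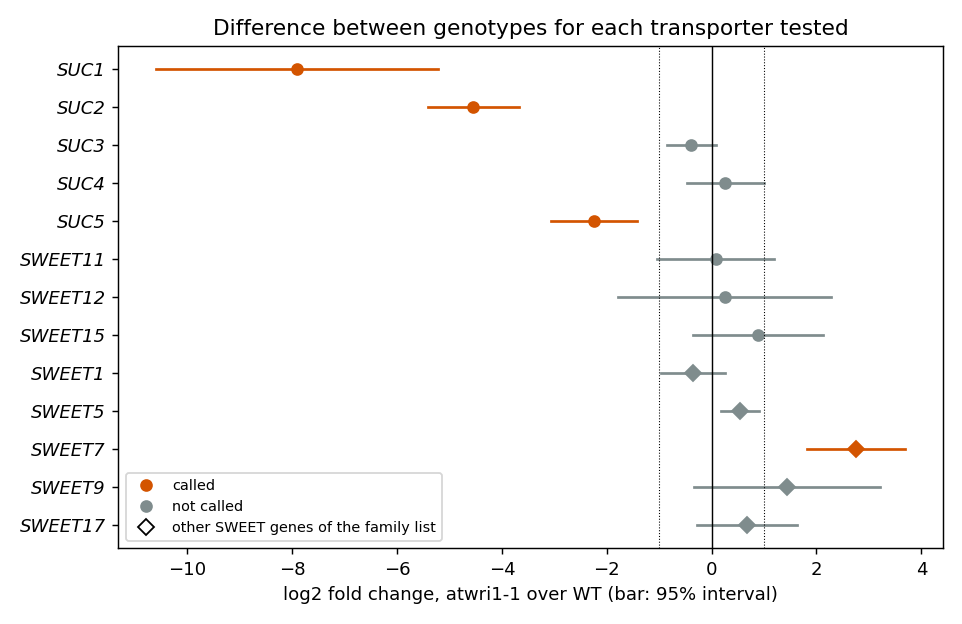
Log2 fold change of *atwri1-1* over WT, with its 95% interval, for the 8 tested members (circles) and 5 other tested SWEET genes (diamonds), with dotted lines at the fold minimum of 1 and -1. *SUC1*, *SUC2* and *SUC5* are called lower and *SWEET7* is called higher, and the intervals of *SWEET11*, *SWEET12* and *SWEET15* all include 0.

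*SWEET11* (AT3G48740, chr3:18052466-18054832, minus strand, 6 exons) was the most abundant SWEET member in WT per length of transcript. Its level was 72.5, 24.0 and 81.5 CPM in the libraries labelled *atwri1-1* and 76.8, 32.7 and 58.0 CPM in WT. In both genotypes replicate 2 was the lowest library, and the groups overlapped. The log2 fold change was 0.081 (SE 0.477, 95% interval -1.04 to 1.20, adjusted p = 0.935, edgeR quasi-likelihood, Benjamini-Hochberg). Its sign turned under several alternatives, and without WT replicate 1 it was 0.36, so no direction is given.

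*SWEET12* (AT5G23660, chr5:7971647-7973995, minus strand, 6 exons) is the closest relative of *SWEET11* among the members, with coding sequences 82.6% identical, where other SWEET pairs shared 61.0% to 62.5%. Its level was 4.39, 1.04 and 3.95 CPM in the libraries labelled *atwri1-1* and 4.48, 0.265 and 2.93 CPM in WT. Replicate 2 was again the lowest in both genotypes. The log2 fold change was 0.25 (SE 0.868, 95% interval -1.79 to 2.28, adjusted p = 0.887, edgeR quasi-likelihood, Benjamini-Hochberg), an interval that spans a large fall as well as a large rise. Its value without WT replicate 1 was 0.91.

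*SWEET15* (AT5G13170, chr5:4181042-4183354, minus strand, 6 exons), also known from senescing leaves, had 74.1, 27.1 and 65.2 CPM in the libraries labelled *atwri1-1* and 49.6, 12.9 and 27.3 CPM in WT. It was higher in the mutant in each of the 3 pairs of libraries with the same replicate number, by ratios of 1.49, 2.10 and 2.39, but the groups as a whole overlapped. The mean was 55.5 ± 24.9 CPM in *atwri1-1* and 29.9 ± 18.5 CPM in WT (SD, n = 3 each). Over all libraries the log2 fold change was 0.88 (SE 0.526, 95% interval -0.35 to 2.12, adjusted p = 0.347, edgeR quasi-likelihood, Benjamini-Hochberg). With the replicate number as a block in the same fit, it was 0.96 with an adjusted p of 0.0314, still short of the fold minimum. Without WT replicate 1 it was 1.44 (adjusted p = 0.0702).

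The balance between *SWEET15* and *SWEET11*, the SWEET members with the highest CPM, was read within each library. The ratio of *SWEET15* to *SWEET11* CPM was 1.02, 1.13 and 0.799 in *atwri1-1* and 0.646, 0.395 and 0.470 in WT. Every mutant library was above every WT library. Like the ratio of *SUC1* to *SUC5*, this one was chosen after its values were seen and has no test.

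*SWEET10* (AT5G50790, chr5:20656193-20658001, minus strand, 6 exons), a sucrose transporter known from the floral transition, had 3, 5 and 17 reads in the libraries labelled *atwri1-1* and 1, 2 and 5 reads in WT. These counts are at or near 3 in all but 1 library, *atwri1-1* replicate 3. The level was higher in the mutant in each of the 3 same-number pairs, by ratios of 3.49, 1.39 and 4.44. With no filter on low counts, the log2 fold change was 1.69 (95% interval -0.67 to 4.06, adjusted p = 0.408, edgeR quasi-likelihood, Benjamini-Hochberg), and DESeq2 gave 1.80 (SE 1.20, adjusted p = 0.385). *SWEET4* (AT3G28007, chr3:10408073-10409977, minus strand, 6 exons), a hexose transporter, had 0 reads in every library, which allows up to 0.148 to 0.338 CPM depending on the library (counting error only).

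**Figure D3:**
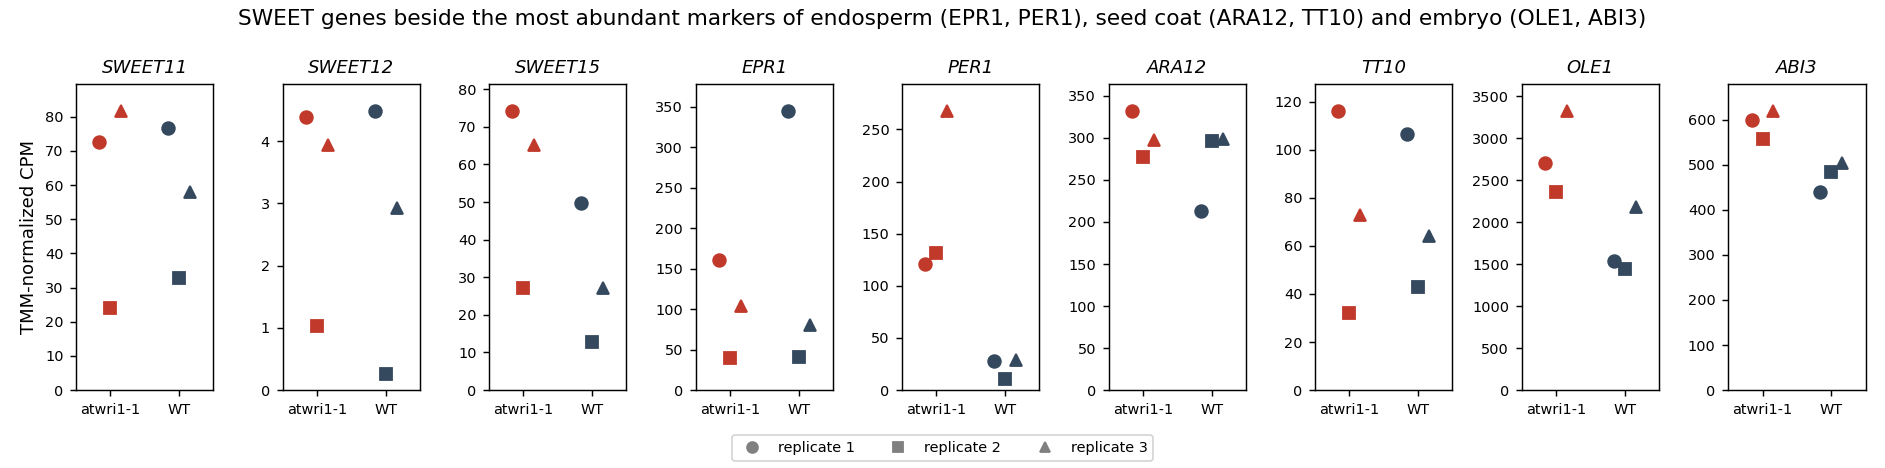
TMM-normalized CPM on linear axes that start at 0 for *SWEET11*, *SWEET12* and *SWEET15* and for the tested markers with the highest mean CPM of endosperm (*EPR1*, *PER1*), seed coat (*ARA12*, *TT10*) and embryo (*OLE1*, *ABI3*), each in its own panel, with *atwri1-1* left of WT and symbols for the replicate number. Replicate 2 (squares) is the lowest library in both genotypes for all 3 SWEET genes, *EPR1*, *TT10* and *OLE1*, but not for *PER1*, *ARA12* and *ABI3*.

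The replicate pattern of the SWEET genes was set beside markers of endosperm and seed coat, the tissues that surround the embryo, and of the embryo itself. Replicate 2 was the lowest library of both genotypes for 3 of 3 tested SWEET members and 0 of 5 SUC members. Over all genes tested this share was 11.7%, beside 18.5% for replicate 1 and 8.91% for replicate 3. Replicate 2 was chosen after the SWEET values were seen, so their count is no test. The same replicate was lowest in both for 3 of 7 tested endosperm markers (*EPR1*, *ALE1* and *AGL62*) and 3 of 5 tested seed coat markers (*BAN*, *TT10* and *MUM2*). It was so for 2 of 5 embryo markers (*FUS3* and *OLE1*). Among the 5 other tested SWEET genes, it was so for *SWEET1* and *SWEET7*, and not for *SWEET5*, *SWEET9* and *SWEET17*. The laccase gene *TT10*, for example, had 116, 32.2 and 72.9 CPM in *atwri1-1* and 107, 43.1 and 64.0 CPM in WT. By contrast, the seed coat marker *ARA12* had 331, 277 and 297 CPM in *atwri1-1* and 213, 297 and 298 CPM in WT. Its lowest WT library was replicate 1. The part of any of these tissues in the SWEET values was not tested.

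Between genotypes, the 8 endosperm markers summed to 388, 208 and 442 CPM in *atwri1-1* and 423, 83.9 and 160 CPM in WT. Of the 7 that could be tested, 3 were called higher in *atwri1-1* and none lower, against 1.08% and 5.31% of all genes tested. These were *AGL62*, a MADS-box factor of the early endosperm, and *FWA*, an imprinted gene, both at low levels, and *PER1*, a peroxiredoxin gene that is also expressed in the maturing embryo, with 121, 131 and 267 CPM in *atwri1-1* and 27.5, 10.8 and 29.3 CPM in WT. The 7 seed coat markers summed to 468, 321 and 384 CPM in *atwri1-1* and 342, 355 and 386 CPM in WT, and none of the 5 tested was called, the lowest adjusted p being 0.295.

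To compare genes with each other, CPM was divided by the length of the counted transcript in kb. In WT, *SUC5* had the highest mean with 61.3 ± 23.8 CPM per kb, followed by *SWEET11* with 40.3 ± 16.0, *SUC1* with 38.0 ± 31.3, *SWEET15* with 22.2 ± 13.7, *SUC2* with 21.5 ± 9.05, *SUC4* with 20.6 ± 8.70 and *SUC3* with 10.3 ± 2.21 CPM per kb (SD, n = 3). Neighbours in this order overlapped in their WT values. *SUC3* was above *SWEET12*, which had 1.90 ± 1.58 CPM per kb, in every WT library.

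The order was different in the libraries labelled *atwri1-1*. There *SWEET11* had 42.8 ± 22.3, *SWEET15* 41.0 ± 18.5 and *SUC4* 24.8 ± 1.81 CPM per kb (SD, n = 3), and neighbours among these overlapped. *SUC4* was above *SUC5* (13.0 CPM per kb, 10.1 to 17.5), *SUC5* above *SUC3* (7.92 ± 1.03 CPM per kb) and *SUC3* above *SWEET12* (2.32 ± 1.35 CPM per kb) in every mutant library. *SUC2* had 0.939 ± 0.219 CPM per kb and overlapped *SWEET12*, and *SUC1* was lowest of the SUC genes with 0.130 ± 0.116 CPM per kb.

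Summed over the 5 SUC genes, the level was 49.1, 43.4 and 47.7 CPM per kb in *atwri1-1* and 95.5, 202 and 158 CPM per kb in WT. The mutant libraries were alike, and all were below WT replicate 1, the lowest WT library. *SUC1*, *SUC2* and *SUC5* together made up 38.4%, 25.4% and 25.6% of that sum in *atwri1-1* and 76.2%, 82.6% and 77.8% in WT. The vacuolar *SUC4* made up 46.5%, 57.8% and 55.3% in *atwri1-1* and 11.3%, 11.8% and 17.3% in WT, although its own level was not called. Summed over the SWEET members, the level was 111, 38.3 and 111 CPM per kb in *atwri1-1* and 95.5, 33.5 and 64.5 CPM per kb in WT, and the groups overlapped.

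**Figure D4:**
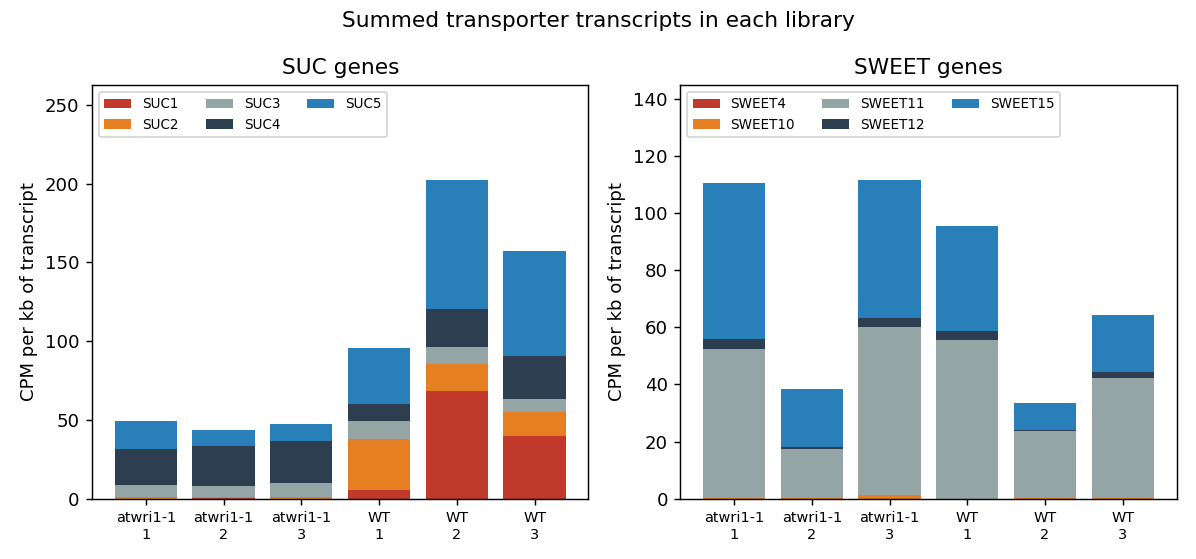
CPM per kb of transcript summed over the 5 SUC genes (left) and the 5 SWEET members (right) in each library, with the 3 *atwri1-1* libraries left of the 3 WT libraries and a coloured segment for each gene. The SUC sum is 43.4 to 49.1 in *atwri1-1* and 95.5 to 202 in WT, with *SUC4* the largest segment in every *atwri1-1* library, while the SWEET sums overlap and are lowest in replicate 2 of each genotype.

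The rest of both families was read from the same fit. None of *SUC6* to *SUC9* could be tested, and each had at most 1 read in any library. Of the 12 other SWEET genes, 5 could be tested, with a median log2 fold change of 0.67. Among these, 1 was called higher and none lower, against 1.08% and 5.31% of all genes tested. The gene called was *SWEET7*, of the clade that transports hexoses, with 15.2, 10.8 and 13.5 CPM in *atwri1-1* and 3.06, 0.973 and 1.73 CPM in WT. All mutant libraries were above all WT libraries, and the log2 fold change was 2.76 (SE 0.398, adjusted p = 0.0064, edgeR quasi-likelihood, Benjamini-Hochberg). *SWEET5*, of the same clade and named after its values were seen as the most abundant of these genes, had 176, 193 and 177 CPM in *atwri1-1* and 102, 141 and 133 CPM in WT, with an adjusted p of 0.074 in that test.

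Genes that cleave sucrose were also listed. Of 7 invertases, 6 were tested and 2 were called lower in *atwri1-1*, with none higher, against 5.31% and 1.08% of all genes tested. *CWINV1*, which cleaves sucrose in the cell wall, had 7.87, 11.3 and 9.13 CPM in *atwri1-1* and 37.8, 58.9 and 48.5 CPM in WT, a log2 fold change of -2.35. *CINV1*, a cytosolic invertase, had 54.1, 57.0 and 53.4 CPM in *atwri1-1* and 77.1, 140 and 121 CPM in WT. Its log2 fold change of -1.04 was just past the fold minimum (95% interval -1.55 to -0.52). Of 6 sucrose synthases, 4 were tested, with *SUS2* called lower and *SUS3* higher, against the same shares of all genes tested. *SUS2* had 4.76, 5.33 and 6.65 CPM in *atwri1-1* and 149, 125 and 216 CPM in WT, a log2 fold change of -4.88. *SUS3* had 20.4, 23.1 and 21.4 CPM in *atwri1-1* and 7.70, 2.65 and 5.26 CPM in WT, a log2 fold change of 2.05. Both genes were thus apart between genotypes, in opposite directions.

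Of 8 monosaccharide transporters, 7 were tested, 3 were called lower and none higher, against 5.31% and 1.08% of all genes tested. These were the proton symporters *STP1* and *STP4*, with log2 fold changes of -2.20 and -2.48, and *STP7*, just past the fold minimum (95% interval -1.35 to -0.65). The 95% interval was -3.18 to -1.23 for *STP1* and -3.72 to -1.23 for *STP4*. *STP4* had few reads, 10, 11 and 4 in *atwri1-1* and 56, 53 and 19 in WT. *STP7* was the most abundant of the 3, with 24.2, 22.1 and 21.3 CPM in *atwri1-1* and 39.8, 52.1 and 43.7 CPM in WT. Of 6 genes of sucrose synthesis, 5 were tested, 1 was called higher and none lower, against 1.08% and 5.31% of all genes tested. The gene called was *SPS1F*, a sucrose-phosphate synthase, with 51.3, 43.6 and 45.3 CPM in *atwri1-1* and 18.5, 19.5 and 20.6 CPM in WT. Its log2 fold change was 1.26 (SE 0.132, adjusted p = 0.0019, edgeR quasi-likelihood, Benjamini-Hochberg). Medians over the tested genes of each list were -0.37 for invertases, 0.63 for sucrose synthases, -0.55 for monosaccharide transporters and 0.33 for sucrose synthesis, against -0.0070 over all genes tested.

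**Figure D5:**
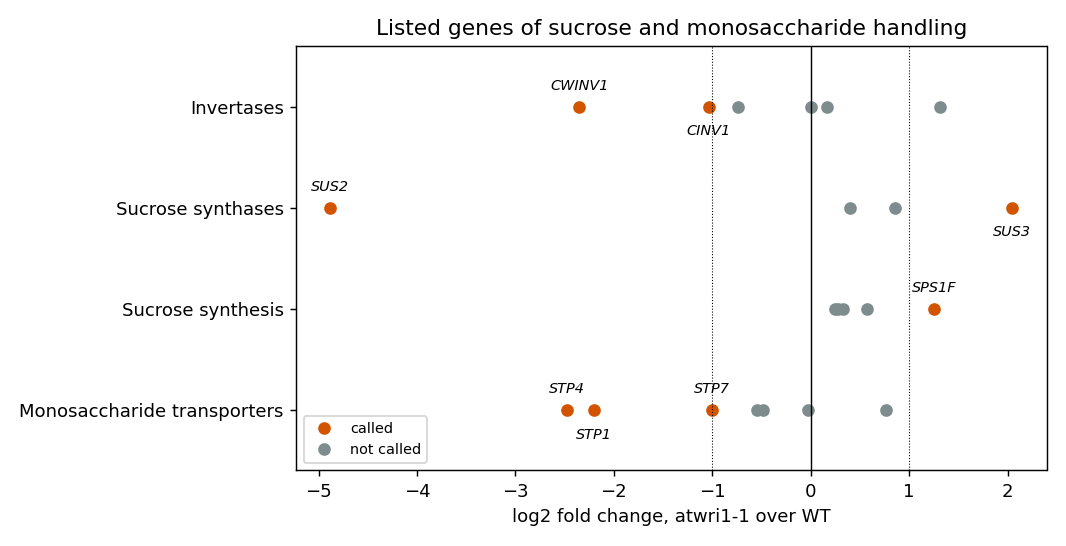
Log2 fold change of *atwri1-1* over WT for each tested gene of 4 listed groups of sucrose and monosaccharide handling, with called genes named and dotted lines at the fold minimum of 1 and -1. *CWINV1*, *CINV1*, *SUS2*, *STP1*, *STP4* and *STP7* are called lower, and *SUS3* and *SPS1F* are called higher.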

How the data were processed

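RNA-Seq counts from 6 libraries were used. According to the study's methods, reads of rRNA were taken out, and bowtie (version 0.12.7 in the submitters' processing notes) aligned the others against the primary transcripts of TAIR10, with at most 2 mismatches and without reads that had several equally good places. The authors deposited the resulting raw counts per transcript. Counting is not stated to use the strand, and no member overlaps another annotated gene. A transcript missing from a library's list was taken as 0. A row that names no transcript held 86.6% of the total in *atwri1-1* replicate 1 and 39.6% to 45.0% in the other libraries, and was left out. The authors' table of normalized values was not used.

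Counts were filtered by filterByExpr (18241 genes kept), scaled by TMM (factors 0.882 to 1.07) and tested by glmQLFit and glmQLFTest in edgeR 4.0.16 under R 4.3.3, with genotype as the factor. The SE is the absolute log2 fold change over the square root of F. Alternatives used limma 3.58.1, DESeq2 1.42.0, edgeR's exact test, other scalings, filters and thresholds, a replicate block, and each library left out. All tests were checked on simulated counts, drawn with the same dispersion for every gene and with no outlying library. That check does not cover a spread such as that of WT replicate 1. Genes, exons, sites and transcript lengths came from RefSeq's annotation of TAIR10.1, a later release than the authors' TAIR10, and identities from coding sequences aligned with Biopython 1.88 in Python 3.11.15. All members were named. Of the listed pathway genes those called were named, at most 4 a list. The members and all lists were chosen with earlier results of these data known.

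Libraries with the same replicate number deviated together from their group means, with correlations of 0.246, 0.286 and 0.214 for replicates 1 to 3. Between genotypes, different numbers gave -0.254 to 0.0359, but deviations within a group cancel out, so this contrast is partly built in. The numbers were taken to pair libraries in the same-number ratios and in the replicate block. The main fit has no block, because the study's methods state none, and its p-values leave the pairing out. The pairing comes from these values, since no source names a shared batch, and the number of WT replicate 3 is uncertain because its title and description differ. Nothing states separate plants or growth rounds for the replicates, so p-values measure the spread between these samples.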

Additional observations from a re-analysis of the deposited data

How the results depend on the processing

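Of 104 values of single members under alternative settings, 93 kept their direction and their side of the threshold, 3 lost the call and 8 changed sign, all 8 in genes that were not called. *SUC1* lost its call with limma-voom, and *SUC5* without *atwri1-1* replicate 2 or 3. *SUC4* was -0.051 without WT replicate 1 (-0.051 to 0.52 with a library left out). *SWEET11* was -0.047 with limma-voom, -0.011 with the replicate block, -0.095 and -0.22 without *atwri1-1* replicates 1 and 3, and -0.19 without WT replicate 2 (-0.22 to 0.46 with a library left out). *SWEET12* was -0.10 without *atwri1-1* replicate 1 and -0.28 without WT replicate 2 (-0.28 to 0.91). The cause was not tested.

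Over all genes tested, 968 were lower and 197 higher. The higher count was 344 with library size only, 327 with the DESeq2 Wald test, 307 with edgeR's exact test and 485 with no fold minimum. In the same settings, in this order, the lower count was 786, 1240, 1195 and 1369. An adjusted p of at most 0.01 left 544 lower and 72 higher. With a library left out, 545 to 1087 were lower and 74 to 364 higher. Library size only moved the median log2 fold change of all genes to 0.17 and kept *SUC1*, *SUC2* and *SUC5* lower. The replicate block gave 935 lower and 224 higher, and changed no call among the members. *SWEET4* and *SWEET10* gave no value under the filter on low counts.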
